A study of Mus musculus with 6 samples.

Results

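OEC5 is the smallest of 5 clusters of olfactory ensheathing cells (OECs) in a single-cell RNA data set of the adult mouse olfactory bulb. Its members are the cells that the deposited annotation places in the cluster of that name, 883 of 51426 annotated cells and 883 of 11551 OECs. OEC1 to OEC4 held 2252, 1740, 3240 and 3436 cells. RNA was measured in 6 libraries, 2 for each of 3 conditions, and each library was a pool of 3 mice of strain C57BL/6NJ, aged 14 weeks. The naris occluded mice wore a plug in a naris for 6 weeks. The trained mice were deprived of water and learned over 6 weeks to tell odor pairs apart in an olfactory-cued task. For control mice the sample labels give no manipulation, and the text of the study calls them naive but in another place names the open side of occluded animals as control, which could not be settled here. In every condition, males were pooled for replicate 1 and females for replicate 2. All bulbs were perfused with PBS and dissociated in papain, and the labels state that some cells of the olfactory epithelium were included.

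OECs are glia of neural crest origin that wrap the axons of olfactory sensory neurons on their way from the nose into the outer layer of the bulb. They express the transcription factor Sox10 and are known for supporting the growth of new sensory axons throughout life. Immediate early genes, which recur throughout these results, are genes whose transcription can start within minutes of a stimulus without new protein synthesis. Many encode transcription factors of the AP-1, EGR and KLF families, and others encode proteins that shut the response down again. Their transcripts are short-lived, and they are known to be induced by growth factors, neuronal activity and stress, the dissociation of tissue included.

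By library, OEC5 held 162 and 119 cells of control, 135 and 229 of naris occluded and 136 and 102 of trained mice (replicate 1, then replicate 2, here and below). Its summed depth per library was between 282805 and 494245 UMIs (unique molecular identifiers, so that counts are of molecules). The median OEC5 cell held 2352 UMIs and 1168 genes, and 9.49% of its UMIs came from mitochondrial genes. Median depth was similar in OEC1 (2108 UMIs), OEC2 (2246.5) and OEC4 (2116.5) and lower in OEC3 (817 UMIs, with 18.6% mitochondrial). In OEC5, 54 cells (6.12%) had under 1000 UMIs. The barcodes of 53 OEC5 cells (6.00%) also occurred in another library, against 5.75% of all annotated cells, and in no case was the barcode in OEC5 of both. Levels below are in CPM, the UMIs of a gene per 1000000 UMIs summed over the cells of a cluster in that library, and errors are the SD over 6 libraries unless stated otherwise. Fewer molecules per cell of a transcript and fewer cells carrying it cannot be told apart in these sums.

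Markers of ensheathing glia are given to describe the cluster. The study assigned cluster identities from genes enriched in these same data, with Sox10 for OECs, so the markers are no independent check. Sox10 stood at 280 ± 44.1 CPM in OEC5, beside 298 in OEC1, 279 in OEC2, 174 in OEC3 and 253 in OEC4. A Sox10 UMI was found in 47.2% of OEC5 cells, with libraries between 42.8% and 55.1%, and in 1.97% of cells (mean of libraries) of Astro1, an astrocyte cluster with a median of 1851.5 UMIs per cell. Of 12 genes of OEC identity, 11 reached 50 CPM in OEC5. Among them were the neuropeptide gene Npy at 13471 ± 1611 CPM and Apod, a lipid carrier, at 9112 ± 1069 CPM. Fabp7, a brain fatty acid binding protein, was at 12632 ± 845 CPM and was the only identity gene with its lowest mean in OEC5. Ngfr, the low-affinity neurotrophin receptor, averaged 1.89 CPM.

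The name OEC5 went against the genes listed for it. The deposited cells of OEC5 were led by Ier2, Junb, Fos and Jun, which are listed under the name OEC2. Of the first 10 genes listed under OEC2, 4 had their highest OEC mean in deposited OEC5 and 6 in deposited OEC4. The cell numbers given for the name OEC2 with the publication are those of deposited OEC5 in every library. Those given for the name OEC5 are in turn those of deposited OEC2 in every library. Of the first 10 genes listed under the name OEC5, which begin with Rgcc, Clca3a1, Agt and Hes5, 4 had their highest mean in deposited OEC1, 4 in OEC2 and 2 in OEC4. Among 50 genes listed under that name, 1 was highest and 5 were lowest in deposited OEC5. Cluster names below follow the deposited annotation, cell by cell, so that OEC5 means the OECs led by immediate early genes.

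To describe what sets OEC5 apart, every gene was compared between OEC5 and each other OEC cluster within each library, on a log2 scale with 10 CPM added to both levels. Because clusters are built from expression, these contrasts carry no test. Among 2875 genes at 50 CPM or more in OEC5, 22 exceeded each of the other OEC clusters by 1.5 times or more in all 6 libraries. Among 2267 genes at 50 CPM or more in each other OEC cluster, 0 were lower by that margin in all libraries. The 20 genes with the largest mean log2 ratio to the highest other OEC cluster are the leading genes, and Btg1 is among the rest of the 22. Of the leading genes, the last were Ppp1r15a at 1.14 and Adamts1 at 1.13, and genes just outside included Hes1 at 0.84 and Dnajb1 at 0.78. The plot of leading genes shows their levels in the 5 clusters.

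**Figure D1:**
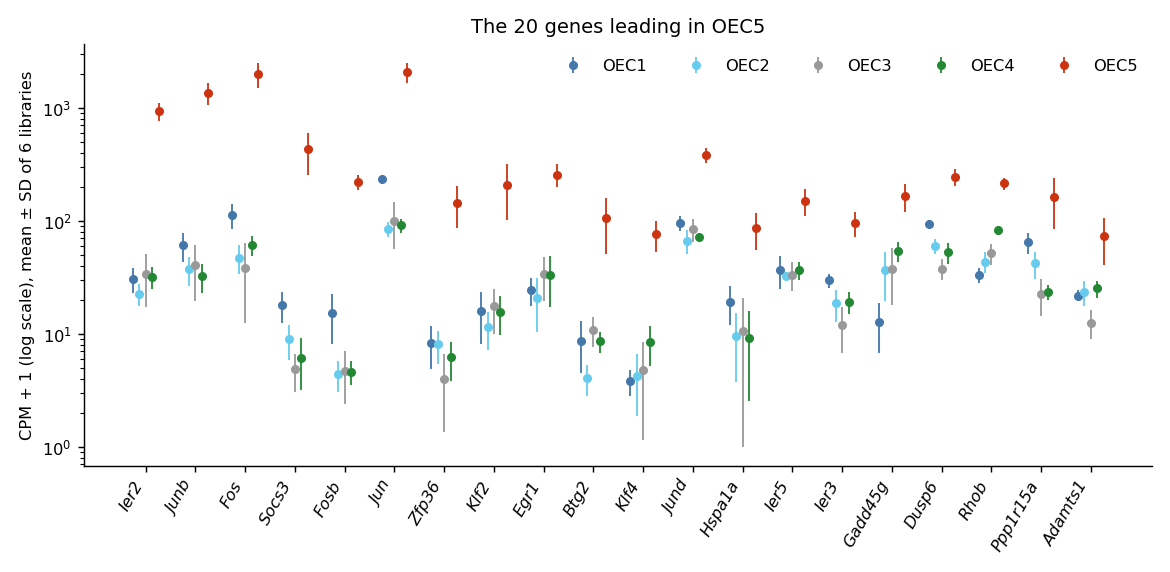
Level (CPM with 1 added, log axis) of the 20 leading genes of OEC5 in the 5 OEC clusters; points are means and lines the SD of 6 libraries. OEC5 has the highest mean for all 20, from Jun at 2065 CPM to Adamts1 at 72.2 CPM.

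Subunits of the AP-1 transcription factor, a dimer of Fos and Jun family proteins, formed the most abundant group. Fos stood at 1647 and 1623 CPM in control, 1712 and 2048 in naris occluded and 1929 and 2895 in trained OEC5, a mean of 1976 ± 481. The highest other OEC cluster was OEC1 at 111 ± 27.5 CPM, so that the mean in OEC5 was 17.8 times as high. Every library of OEC5 lay far above every library of OEC1, and trained replicate 2 stood above the others. Jun was at 1603 and 1793 CPM in control, 1839 and 2120 in naris occluded and 2322 and 2714 in trained OEC5. Its mean of 2065 ± 407 CPM was 8.91 times that of OEC1 (232 ± 22.9 CPM). Junb was at 1099 and 1160 CPM in control, 1081 and 1451 in naris occluded and 1506 and 1856 in trained OEC5. For this gene the mean was 1359 ± 304 CPM, against 31.1 to 59.6 CPM in the other OEC clusters. Fosb averaged 218 ± 31.7 CPM, 15.4 times the level of OEC1, and varied little between libraries, from 180 to 254 CPM. Jund, a member of the Jun family that most cells express at rest, differed by less, at 383 ± 59.5 CPM in OEC5 and 65.4 to 94.3 CPM elsewhere.

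Zinc-finger transcription factors of the EGR and KLF families formed another group. Egr1 was at 221 and 205 CPM in control, 227 and 237 in naris occluded and 271 and 365 in trained OEC5. The mean of 254 ± 58.6 CPM was 7.79 times that of the next OEC cluster. Klf2, best known from endothelium under flow, averaged 207 ± 106 CPM, against 10.4 to 16.4 CPM in the other clusters. Klf4 averaged 74.8 ± 23.1 CPM and was at 7.43 CPM or less elsewhere.

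Ier genes and genes that dampen signaling or destabilize transcripts formed a further group. Ier2, a nuclear protein of immediate early responses, had the largest mean log2 ratio, 4.27 ± 0.46. Its level was 767 and 870 CPM in control, 761 and 1052 in naris occluded and 969 and 1176 in trained OEC5, and 21.6 to 33.0 CPM in the other clusters. Socs3, which inhibits cytokine signaling through JAK and STAT, was at 356 and 336 CPM in control, 259 and 431 in naris occluded and 414 and 761 in trained OEC5. The mean of 426 ± 175 CPM was 25.3 times that of OEC1. Its spread was wide, and trained replicate 2 again stood highest. Zfp36, which promotes the decay of AU-rich transcripts, averaged 144 ± 57.9 CPM against 7.28 CPM or less. Btg2, an antiproliferative gene, averaged 104 ± 53.8 CPM against 9.80 CPM or less. Dusp6, a phosphatase of ERK kinases, averaged 245 ± 43.4 CPM, 2.67 times the mean of OEC1. Ier5 and Ier3 averaged 148 ± 40.1 and 94.6 ± 23.9 CPM, 4.16 and 3.31 times the next cluster.

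Genes of the stress response were also among the leading genes. Hspa1a, an inducible heat shock protein, averaged 84.7 ± 30.2 CPM, 4.65 times the mean of OEC1. Gadd45g, a growth arrest and DNA damage gene, averaged 164 ± 44.9 CPM, 3.11 times the mean of OEC4. Ppp1r15a, which restarts translation after stress, averaged 160 ± 75.7 CPM, 2.52 times the mean of OEC1, with 308 CPM in trained replicate 2 and 111 to 168 CPM in the other libraries. Outside these classes, Rhob, a small GTPase, averaged 212 ± 27.4 CPM, and Adamts1, a secreted protease, 72.2 ± 33.1 CPM.

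Promoters of the leading genes were read from RefSeq sequence of mouse build GRCm38.p6, where 18 of 20 matched (Ier2 and Egr1 did not). Both strands of windows of 250 bases before and 50 bases after the start were searched for the cyclic AMP response element (TGACGTCA), for the CArG box bound by serum response factor, and for the AP-1 site TGACTCA. The response element was present in 2 genes, Btg2 and Ppp1r15a, and in 1.79% of 32851 promoters of all genes. The CArG box was present in 1 gene, Zfp36, and in 1.63% of all promoters. The AP-1 site was present in 0 of the 18, against 5.20% of all promoters. These letters are only a description of the windows. The 250 bases before the start are shown for the 3 genes with a match, with the match in capitals, and for Fos, which leads the cluster in single cells and held none. They lie at chr1:134079156-134079405 (Btg2, minus strand), chr7:45526269-45526518 (Ppp1r15a, minus strand), chr7:28379229-28379478 (Zfp36, minus strand) and chr12:85473640-85473889 (Fos, plus strand).
Btg2: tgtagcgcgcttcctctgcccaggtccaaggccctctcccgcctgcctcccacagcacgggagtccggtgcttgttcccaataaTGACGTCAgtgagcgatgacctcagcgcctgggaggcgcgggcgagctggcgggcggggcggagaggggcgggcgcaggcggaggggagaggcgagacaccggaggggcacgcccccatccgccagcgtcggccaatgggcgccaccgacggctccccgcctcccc
Ppp1r15a: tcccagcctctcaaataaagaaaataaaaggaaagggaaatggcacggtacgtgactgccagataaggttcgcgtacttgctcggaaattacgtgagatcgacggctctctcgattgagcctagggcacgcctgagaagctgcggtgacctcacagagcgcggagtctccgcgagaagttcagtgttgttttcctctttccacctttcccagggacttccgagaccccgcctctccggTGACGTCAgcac
Zfp36: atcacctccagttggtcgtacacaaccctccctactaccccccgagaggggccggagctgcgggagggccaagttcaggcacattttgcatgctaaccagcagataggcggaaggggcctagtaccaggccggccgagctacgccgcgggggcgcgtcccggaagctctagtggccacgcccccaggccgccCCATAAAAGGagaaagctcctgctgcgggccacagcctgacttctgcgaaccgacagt
Fos: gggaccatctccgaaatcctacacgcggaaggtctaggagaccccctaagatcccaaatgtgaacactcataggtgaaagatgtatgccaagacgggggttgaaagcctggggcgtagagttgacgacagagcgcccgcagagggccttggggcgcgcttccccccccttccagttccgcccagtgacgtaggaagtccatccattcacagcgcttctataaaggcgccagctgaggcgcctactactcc

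The immediate early list of 26 genes was summed to place OEC5 among all 38 clusters of the bulb. Of its members, 18 reached 50 CPM in OEC5, all 18 had their highest OEC mean there, and 15 were among the 22 genes named above. The sum was 8592 ± 1735 CPM in OEC5 and 884, 523, 556 and 603 CPM in OEC1 to OEC4. A microglial and a phagocyte cluster were higher, MicroG1 at 19296 ± 1569 CPM and the macrophage cluster at 9576 ± 2798 CPM. Next came monocytes at 6733 CPM and the endothelial cluster EC1 at 5896 CPM. Within OEC5 the sum was 6872 and 7355 CPM in control, 7440 and 9048 in naris occluded and 9332 and 11504 in trained libraries. MicroG1, in the same order, was at 18703 and 17334, 17788 and 20493, and 20353 and 21107 CPM. EC1 was at 4760 and 5105, 5137 and 6745, and 7504 and 6128 CPM. Both other clusters thus also had higher sums in the trained than in the control libraries, with no overlap, and the macrophage cluster, at 7053 and 8868 CPM in control and 6336 and 13744 in trained, overlapped. Fosb, Hspa1a and Ppp1r15a had their highest mean of all 38 clusters in OEC5, each by less than its SD over libraries. Fosb was at 218.45 ± 31.7 CPM beside 217.91 in MicroG1, and Hspa1a at 84.7 ± 30.2 beside 80.7 in the macrophage cluster. Ppp1r15a was at 160 ± 75.7 CPM beside 127 in MicroG1. Fos, Jun, Junb, Ier2, Socs3 and Egr1 ranked next after 1 other cluster.

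**Figure D2:**
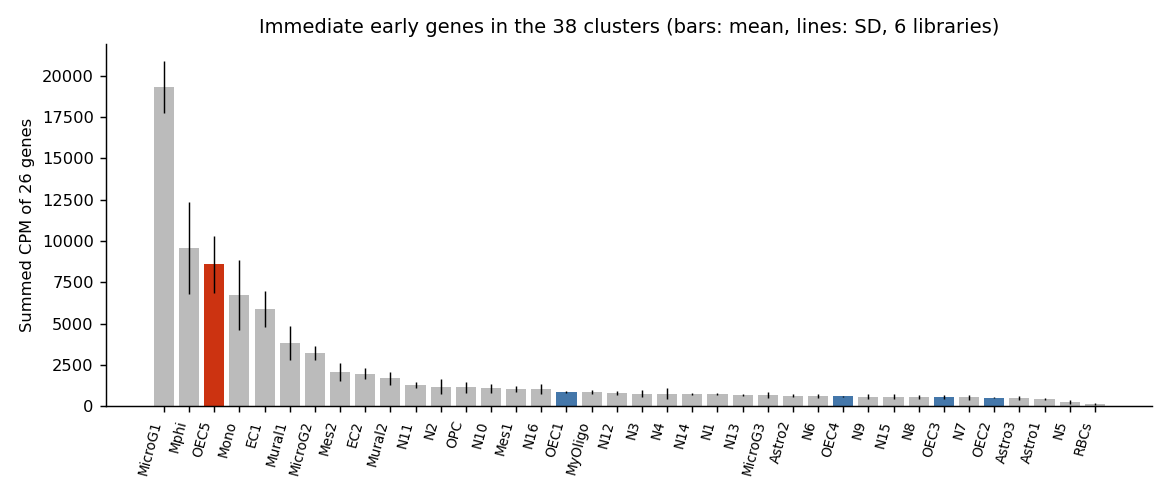
Summed level (CPM) of the 26 immediate early genes by cluster; bars are means and lines the SD of 6 libraries. OEC5 (red) ranks after MicroG1 and the macrophage cluster, at 8592 ± 1735 CPM, while OEC1 to OEC4 (blue) lie between 523 and 884 CPM.

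The difference was carried by nearly all cells of the cluster and not by a few. The immediate early genes made up a median of 0.703% of the UMIs of an OEC5 cell, with a 5th percentile of 0.217% and a 95th of 2.18%. Each OEC5 cell carried at least 1 of these transcripts, and the median cell carried transcripts of 6 of the genes. Median shares were 0.0542% in OEC1, 0.0388% in OEC2, 0% in OEC3 and 0.0460% in OEC4. Of 10668 cells of OEC1 to OEC4, 564 (5.29%) reached the 5th percentile of OEC5, and 8 (0.0750%) reached its median. As clusters were cut from expression, these shares are a description of where the border was drawn.

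A Fos UMI was found in 92.3% of OEC5 cells, beside 12.9% in OEC1, 7.59% in OEC2, 2.78% in OEC3 and 9.81% in OEC4. In Astro1, the share was 2.56%. After thinning each cell to 500 UMIs, the share with Fos was 55.9% in OEC5 and 3.86% in OEC1. Jun was found in 88.9% of OEC5 cells, Junb in 80.2% and Ier2 in 68.5%. Less abundant members were found in fewer cells, Egr1 in 40.4%, Socs3 in 38.4% and Zfp36 in 22.0%. The same genes were found in 13.8% (Jun), 2.49% (Junb), 2.78% (Ier2), 2.33% (Egr1), 0.415% (Socs3) and 1.18% (Zfp36) of Astro1 cells.

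**Figure D3:**
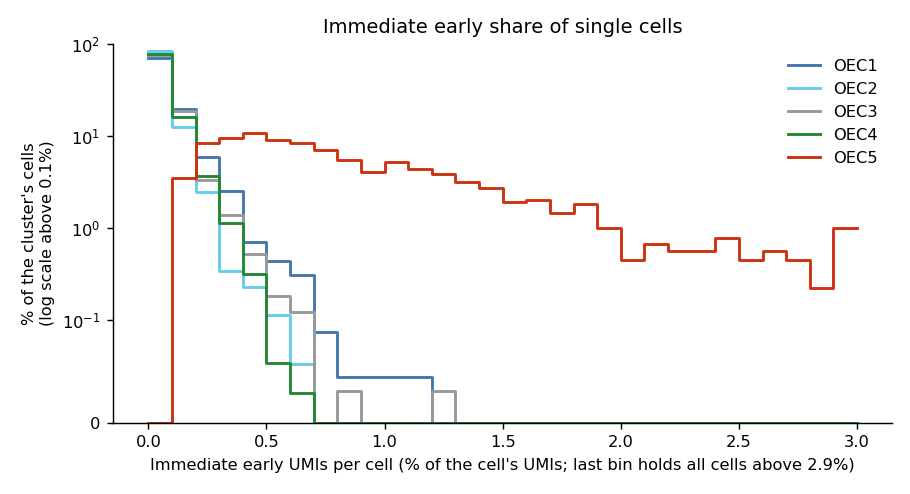
Histogram over single cells of the percent of UMIs from the 26 immediate early genes; the vertical axis is the percent of the cells of each OEC cluster, on a scale that is linear near 0 and logarithmic above, and the last bin holds all higher cells. The median is 0.703% in OEC5 and at most 0.0542% in the other clusters.

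Few genes were low in OEC5. By the mean log2 ratio to the lowest other OEC cluster, the lowest was Ncan, a proteoglycan of the extracellular matrix, at −0.50 ± 0.35, with 37.9 ± 11.7 CPM in OEC5 and 59.1 to 83.4 CPM elsewhere. Next were Agpat3, an enzyme of phospholipid synthesis, at −0.40, and Scamp5, a protein of secretory vesicles, at −0.31. Psap, the precursor of lysosomal saposins, differed the most evenly. It stood at 669 ± 36.3 CPM in OEC5 and 772 to 894 CPM in OEC1 to OEC4, below every other cluster in 6 of 6 libraries. The 12 lowest genes also held both subunits of soluble guanylate cyclase, Gucy1a3 at 50.8 CPM and Gucy1b3 at 56.2 CPM, each below the means of the other 4 clusters. Agt, the angiotensin precursor, was at 219 ± 63.4 CPM against 263 CPM in OEC3. Its ratio of −0.20 turned to 0.06 when only cells with at least 1000 UMIs were used.

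Outside the immediate early genes, OEC5 resembled the other clusters. Over 3516 genes at 50 CPM or more in an OEC cluster, with the immediate early and the 22 higher genes left out, the log2 levels of OEC5 had a Pearson correlation across genes of 0.963 with OEC4, 0.963 with OEC2, 0.959 with OEC3 and 0.906 with OEC1. All clusters share their libraries, and genes are not independent. The median absolute log2 difference was 0.145 from OEC4, 0.153 from OEC2, 0.224 from OEC3 and 0.218 from OEC1.

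OEC5 lay between OEC1 and OEC4 for most genes that differ between these clusters, as OEC2 and OEC3 did. Of 368 genes that differed between OEC1 and OEC4 by 1 or more on the log2 scale, OEC5 was between both in 353, OEC2 in 336 and OEC3 in 322. On a scale from 0 at OEC4 to 1 at OEC1, its median position was 0.374, beside 0.444 for OEC2 and 0.331 for OEC3. Cldn5, a tight junction protein, stood at 3630 CPM in OEC1, 141 in OEC4 and 1066 ± 390 in OEC5. Igfbp7, which binds insulin-like growth factors, stood at 1730, 33.9 and 506 CPM in the same order. Prss56, a serine protease, had 11.1 CPM in OEC1, 829 in OEC4 and 685 in OEC5, and Mgst1, a microsomal glutathione transferase, 30.0, 1737 and 853 CPM.

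In single cells of OEC5 the intermediate levels went with cells carrying either set of transcripts. Cldn5 and Prss56 were taken as a pair after their values were seen. Of OEC5 cells, 260 (29.4%) had a UMI of Cldn5 alone, 376 (42.6%) of Prss56 alone, 49 (5.55%) of both and 198 (22.4%) of neither. In Astro1, a UMI of Cldn5 was found in 9.52% of cells and of Prss56 in 1.76%. If both genes were found independently of each other, 16.8% of OEC5 cells would have carried both. For Igfbp5 and Aqp1, another pair that differs between OEC1 and OEC4, 18.5% of OEC5 cells carried both, where independence gives 24.0%. In OEC1, 94.1% of cells had Cldn5 alone. In OEC4, 60.2% had Prss56 alone and 11.6% had both, beside 11.7% under independence. In OEC3, of lower depth, 1.45% had both, beside 3.03%. In OEC2, of a depth like that of OEC5, 6.95% had both, beside 8.98%. Igfbp5 and Aqp1 were both found in 32.9% of OEC2 cells, beside 32.6%. OEC5 cells with Cldn5 alone had Igfbp7 at 1367 CPM and Mgst1 at 116 CPM, and those with Prss56 alone had 30.6 and 1440 CPM. The regulator of G protein signaling Rgs2 was at 71.1 CPM in the first set and 972 CPM in the second.

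The immediate early sum was high in both sets of OEC5 cells, at 10235 ± 2456 CPM with Cldn5 alone and 7312 ± 1253 CPM with Prss56 alone. The means of single members differed between the sets in either direction or little. Socs3 stood at 661 ± 275 CPM with Cldn5 alone and 242 ± 50.9 CPM with Prss56 alone, and Jun at 2589 and 1642 CPM. The Notch target Hes1 stood at 637 ± 151 and 355 ± 101 CPM. Ier2 (874 and 901 CPM) and Egr1 (266 and 243 CPM) had similar means in both, and Gadd45g was at 106 CPM with Cldn5 alone and 201 CPM with Prss56 alone.

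**Figure D4:**
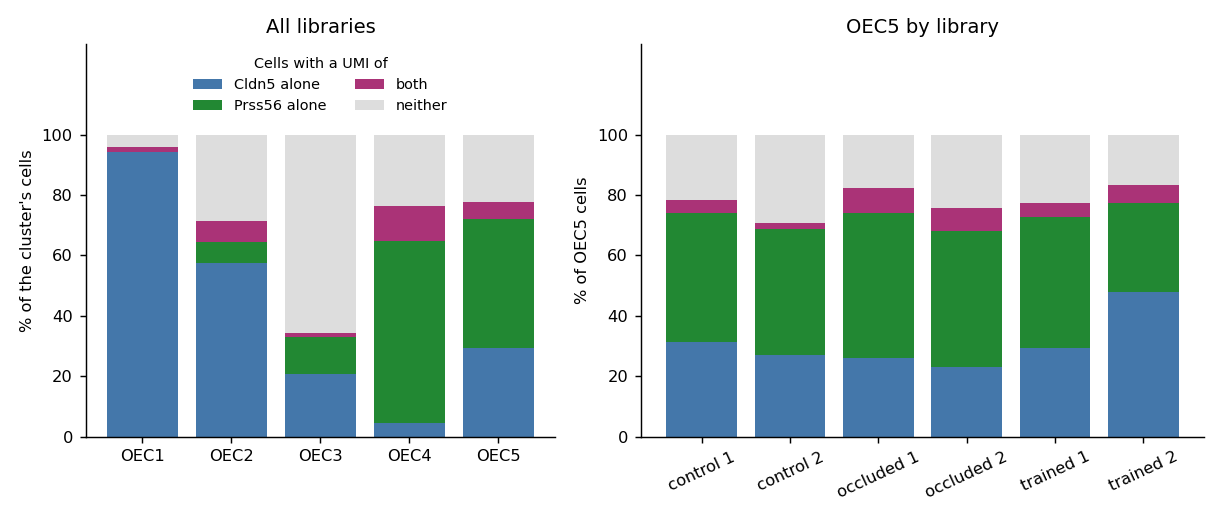
Percent of cells with a UMI of Cldn5 alone, of Prss56 alone, of both or of neither, in each OEC cluster (left) and in OEC5 of each library (right). OEC5 holds 29.4% and 42.6% of cells with 1 of them alone, while OEC1 is mostly Cldn5 alone (94.1%) and OEC4 mostly Prss56 alone (60.2%).

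Other gene groups were described in the same way, as counts beside those of all genes, of which 548 of 2875 at 50 CPM or more had their highest and 200 their lowest OEC mean in OEC5. In the Notch pathway, 8 of 28 members reached 50 CPM. Hes1, a transcriptional repressor induced by Notch, was the 1 highest in OEC5, at 442 ± 66.4 CPM beside 88.2 to 239 CPM elsewhere, while the related target Hes5 was at 1021 ± 201 CPM, between OEC1 (776 CPM) and OEC2 (1479 CPM). Of 12 IGF and TGF-beta genes at that level, Id1, Id2 and Id3, inhibitors of DNA binding that respond to BMP signals, were highest in OEC5. The matrix and adhesion list had 22 members at that level and 1 higher gene, Adamts1. Among 26 genes of lipid handling, 1 was highest and 3 (Fabp7, Apoe and Hmgcs1) were lowest. Among 23 channel, pump and gap junction genes, 1 was highest (Glul, listed here although it encodes the enzyme glutamine synthetase) and 4 were lowest, Kcnj10, Clca3a1 and Slc1a2 among them. Lists of secreted peptides (13 members at that level), myelin (7), reactive glia (14) and interferon-linked genes (8) had 0 members highest in OEC5.

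Summed markers of other cells were below those of the cells they mark. Astrocyte markers (9 genes, of which 2 reached 50 CPM) summed to 1790 CPM in OEC5, against 11685 CPM in Astro1, and ranked 8 of 38 clusters. Markers of myelinating oligodendrocytes (7 genes, 2 at 50 CPM) summed to 757 CPM, against 22231 CPM in the cluster of that type. Microglia and macrophage markers (11 genes) summed to 154 CPM, against 35945 CPM in MicroG2, and endothelial markers (7 genes) to 91.1 CPM. Neuron markers (9 genes) summed to 393 CPM, against 7841 CPM in the neuronal cluster N1. Olfactory sensory neuron markers (6 genes) summed to 817 CPM, with libraries between 388 and 1502 CPM, against 39645 CPM in cluster N5. None of the 11 microglial and 7 endothelial markers reached 50 CPM in OEC5.

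To ask how olfactory experience changes the cluster, counts of OEC5 cells were summed per library and compared with edgeR's quasi-likelihood test with Benjamini-Hochberg adjustment over 5433 genes. Libraries carry the spread between pools of mice, and sex is confounded with replicate. Immediate early genes set OEC5 apart, so tests of them within the cluster are not independent of how its cells were assigned. Log2 fold changes below are given with their SE.

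Between naris occluded and control OEC5, 1 of 5433 genes passed (0.0184%). S100a5, a calcium-binding protein of olfactory sensory neurons, fell, with a log2 fold change of −1.88 ± 0.27 (edgeR, adjusted p = 0.000318). It was at 693 and 463 CPM in control, 137 and 178 in naris occluded and 866 and 305 in trained OEC5. The 2 occluded libraries lay below the other 4. In OEC1 to OEC4 together it was at 683 and 753, 271 and 151, and 864 and 531 CPM, and in N5 at 20370 CPM. The change in OEC5 minus that in OEC1 to OEC4 was −0.06 ± 0.16 (edgeR, adjusted p = 0.999). Of 5 neuron markers tested, 0 passed and 0 had a log2 fold change above 0 (median −0.84). Of 2 olfactory sensory neuron markers tested, the one besides S100a5 was at −0.38 and did not pass. The sum of the 6 sensory neuron markers, S100a5 included, was 1168 and 803 CPM in control OEC5. It was 388 and 542 CPM in naris occluded and 1502 and 499 in trained OEC5. S100a5 was found in all 38 clusters, from 222 CPM in Mes2 to 20370 CPM in N5. Its mean was 411 CPM in Astro1 and 442 in EC1, beside 440 in OEC5. Whether S100a5 transcripts in OEC5 came from OEC5 cells was not tested. Without control replicate 1 the adjusted p was 0.0777. No immediate early gene passed, and of 20 tested 18 had a log2 fold change above 0, with a median of 0.24. For Fos the change was 0.19 ± 0.16 and for Jun 0.21 ± 0.15. Sox10 (0.11 ± 0.19) and Npy (0.04 ± 0.11) did not pass either.

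Between trained and control OEC5, 5 of 5433 genes passed (0.092%), 3 higher and 2 lower. Both of the immediate early genes that passed rose in trained OEC5, and both are among the 22 genes that set the cluster apart. Btg2 was at 60.6 and 60.1 CPM in control and 146 and 188 in trained libraries, a log2 fold change of 1.42 ± 0.29 (edgeR, adjusted p = 0.0223). Klf2 was at 137 and 124 CPM in control and 360 and 292 in trained libraries, a change of 1.28 ± 0.26 (edgeR, adjusted p = 0.0223). The naris occluded libraries held 60.8 and 107 CPM of Btg2 and 92.5 and 239 CPM of Klf2, so that only the trained libraries lay above all others for both. The remaining 18 immediate early genes tested did not pass. For Fos the log2 fold change was 0.52 ± 0.16 (adjusted p = 0.332), for Jun 0.53 ± 0.15 (adjusted p = 0.183), for Junb 0.54 ± 0.16 (adjusted p = 0.332) and for Zfp36 1.04 ± 0.24 (adjusted p = 0.111), all by edgeR. Over the list, 18 of 20 values were above 0, with a median of 0.53, while the median of all genes was 0.00. In naris occluded against the same control libraries, 18 of 20 were also above 0. The list holds genes that set OEC5 apart, so in both comparisons values are not independent of each other or of how cells were assigned.

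The 3 other genes were not immediate early genes. Hspa8, a constitutive heat shock protein, rose from 498 and 576 CPM in control to 1216 and 824 in trained OEC5 (log2 fold change 0.89 ± 0.19, edgeR, adjusted p = 0.0320). Cirbp, the cold-inducible RNA-binding protein, fell from 356 and 322 CPM to 128 and 214 (−1.03 ± 0.20, adjusted p = 0.0223 by edgeR). The same directions were seen in OEC1 to OEC4, with Hspa8 at 518 and 526 CPM in control and 1109 and 748 in trained, and Cirbp at 308 and 290 CPM and 153 and 190. Sema6d, a transmembrane semaphorin, fell from 119 and 127 CPM to 33.5 and 46.9 (−1.64 ± 0.31, adjusted p = 0.0223 by edgeR), while in OEC1 to OEC4 it was at 62.1 and 68.1 and at 59.8 and 58.0 CPM. Without control replicate 1, none of the 5 genes passed. Without trained replicate 1, Sema6d, Klf2, Cirbp and Hspa8 did not pass (adjusted p between 0.121 and 0.340), with the log2 fold change of Hspa8 at 0.57, and without trained replicate 2 Btg2 did not (0.219).

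Between trained and naris occluded OEC5, 6 of 5433 genes passed (0.11%), 5 higher and 1 lower in trained. S100a5 was higher by 1.86 ± 0.28 (edgeR, adjusted p = 0.000403), but without trained replicate 1 the value was 0.90 (adjusted p = 0.106). Wls, which carries Wnt ligands to the cell surface, was at 169 and 117 CPM in naris occluded and 265 and 345 in trained OEC5, higher by 1.09 ± 0.21 (edgeR, adjusted p = 0.0132). The call was lost without naris occluded replicate 2 (adjusted p = 0.199) and without trained replicate 2 (0.126). Htra1, a secreted protease, was at 291 and 229 CPM and at 479 and 473 CPM (0.86 ± 0.18, edgeR, adjusted p = 0.0370). In OEC1 to OEC4 it was at 335 and 343 CPM in naris occluded and 490 and 460 in trained libraries. It did not pass without naris occluded replicate 2 (adjusted p = 0.421), trained replicate 1 (0.0521) or trained replicate 2 (0.0753), nor with cells of at least 1000 UMIs (0.05003). Hspa8 (0.88 ± 0.18) and Cirbp (−1.04 ± 0.20) moved as they did against control, and Gm26532, a noncoding transcript, was higher by 2.28 ± 0.49 at low counts. Without trained replicate 1 neither Hspa8 (0.56, adjusted p = 0.343) nor Cirbp (−0.71, adjusted p = 0.231) passed, and Hspa8 also did not pass without naris occluded replicate 1 (adjusted p = 0.159). Gm26532 did not pass without naris occluded replicate 1 (adjusted p = 0.121) or trained replicate 2 (0.555), nor with cells of at least 1000 UMIs (0.05003). These contrasts share libraries and are not independent of each other. DESeq2's Wald test, run on the same sums, called 0 genes in each of the 3 comparisons, and genes at an unadjusted p under 0.05 in edgeR numbered 228, 365 and 411.

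To ask whether OEC5 changed differently from the remaining OECs, the change in OEC5 minus the change in the sum of OEC1 to OEC4 was tested in 1 model over 11036 genes with library as a term. For naris occluded against control, 0 genes passed (0%), with 503 at an unadjusted p under 0.05 in edgeR and 0 called by DESeq2. The smallest p values belonged to Egr1 (0.98 ± 0.24), Tmsb10, Nrarp and Cldn5, each with an adjusted p of 0.266 by edgeR. For Cldn5 the difference was −0.41 ± 0.11. It was larger in size without control replicate 2 (−0.61) and without naris occluded replicate 1 (−0.65).

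For trained against control, 39 of 11036 genes differed in their change (0.353%), 26 with a larger and 13 with a smaller log2 change in OEC5. Among them were 4 immediate early genes. Because these genes also drew the border between OEC5 and the other clusters, their tests are not independent of how cells were assigned. Jun had a difference of 0.77 ± 0.12 (edgeR, adjusted p = 2.24e-07) and Junb of 0.94 ± 0.17 (adjusted p = 2.27e-05). For Fos it was 0.55 ± 0.14 (adjusted p = 0.0238 by edgeR) and for Ier2 0.73 ± 0.19 (adjusted p = 0.0430 by edgeR). In OEC1 to OEC4, Jun stood at 118 and 139 CPM in control and 110 and 107 in trained libraries, and Junb at 45.2 and 41.1 and at 36.2 and 28.8 CPM. In OEC5 both genes were higher in each trained library than in each control library, and in the sum of OEC1 to OEC4 each trained library lay below each control library. The make-up of that sum also differed, as OEC1, in which Jun and Junb had the highest means of these 4, contributed 476 and 336 cells in control and 233 and 276 in trained libraries, and its part was not tested. Within single clusters the immediate early sum went from 490 and 482 CPM in control to 585 and 556 in trained OEC2, and from 635 and 565 to 663 and 550 in OEC4. In OEC1 it went from 932 and 893 to 958 and 758 CPM, and in OEC3 from 495 and 552 to 594 and 504 CPM, so that the libraries overlapped in OEC1, OEC3 and OEC4. Jun passed without any single library. Without trained replicate 2 the adjusted p was 0.385 for Junb, 0.943 for Fos and 0.838 for Ier2, and without control replicate 1 it was 0.0852, 0.817 and 0.945. The differences were then also smaller, for Fos 0.19 without trained replicate 2 and 0.37 without control replicate 1, and for Ier2 0.49 and 0.37. With the replicate number as a block, Fos (adjusted p = 0.0550) and Ier2 (0.0770) did not pass in edgeR. DESeq2 called 0 of the 39 genes, with an adjusted p of 0.0732 for Jun.

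Npy, highest in OEC4, was among the 39 and had a difference of −0.46 ± 0.07 (edgeR, adjusted p = 2.66e-08), with 14738 and 13582 CPM in control and 12127 and 10945 in trained OEC5. Igfbp5 (0.79 ± 0.12) and Igfbp7 (0.89 ± 0.14), highest in OEC1, differed in the opposite direction. So did Cldn5, a tight junction protein, with a difference of 0.66 ± 0.10 (edgeR, adjusted p = 3.95e-07), which was not recomputed with single libraries left out. Without trained replicate 2, Igfbp5 was at 0.50 (adjusted p = 0.395), and in OEC5 its trained libraries (564 and 1019 CPM) lay on both sides of the control libraries (662 and 591). Igfbp7 was at 503 and 304 CPM in control and 475 and 908 in trained OEC5. In the sum of OEC1 to OEC4, Npy was at 12585 and 12320 CPM in control and 13637 and 13586 in trained libraries. Igfbp5 was there at 832 and 896 and at 530 and 675 CPM, and Igfbp7 at 635 and 588 and at 411 and 660 CPM. Cldn5 was at 1355 and 1164 and at 907 and 1312 CPM. The make-up of that sum also differed, with fewer OEC1 cells in trained libraries. The make-up of OEC5 differed between libraries as well, and the part of either in these results was not tested. Cells with Cldn5 alone were 31.5% and 26.9% of OEC5 in control, 25.9% and 23.1% in naris occluded and 29.4% and 48.0% in trained libraries. Cells with Prss56 alone were 42.6% and 42.0%, 48.1% and 45.0%, and 43.4% and 29.4%. Trained replicate 2 thus stood apart in make-up, and trained replicate 1 was close to the control libraries. The immediate early sum was higher in trained than in control libraries within both sets of cells, at 7928 and 9708 against 11951 and 13513 CPM with Cldn5 alone, and at 5682 and 6166 against 7259 and 9131 CPM with Prss56 alone.

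**Figure D5:**
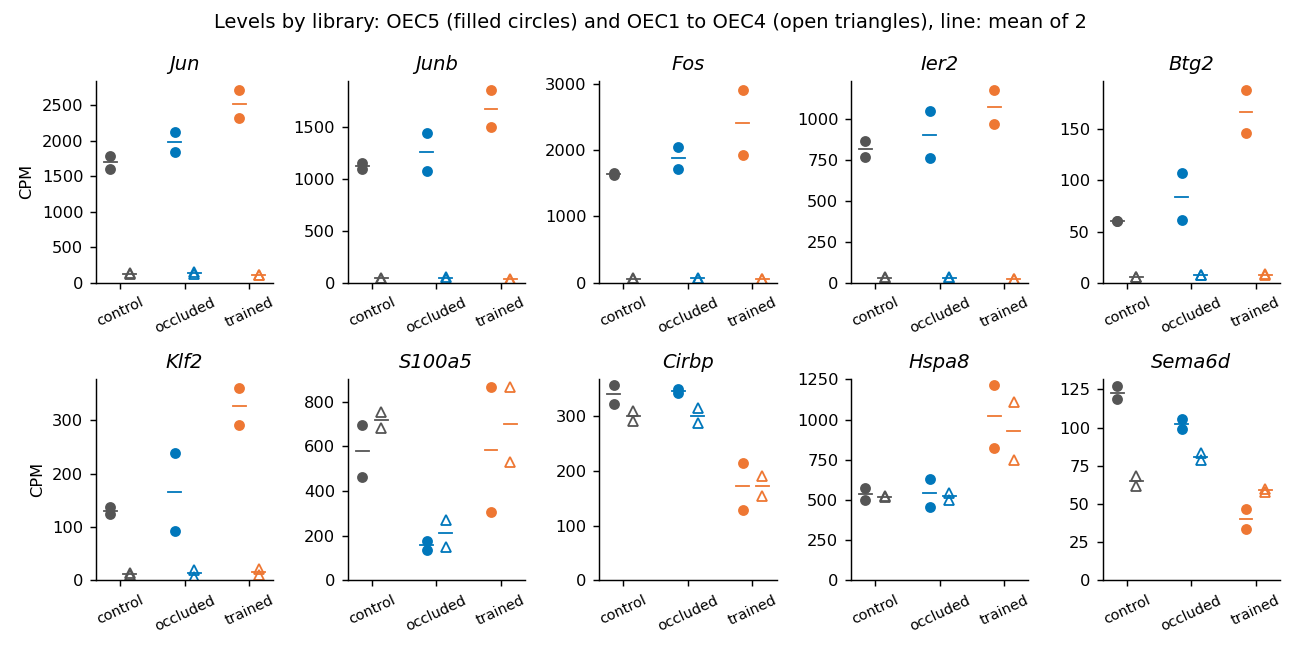
Level (CPM) of 6 immediate early genes and of S100a5, Cirbp, Hspa8 and Sema6d in each library of control, naris occluded and trained mice; circles are OEC5, triangles OEC1 to OEC4, and lines the mean of 2 libraries. Btg2 and Klf2 are higher in both trained libraries than in the others, and S100a5 is lowest in both naris occluded libraries.

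The abundance of OEC5 was compared last. OEC5 made up 7.56% and 6.72% of OECs in control, 7.21% and 10.0% in naris occluded and 7.02% and 6.59% in trained libraries. The 95% Wilson interval for naris occluded replicate 2 was 8.88% to 11.4%, above those of all other libraries. These were 6.12% to 8.47% in naris occluded replicate 1 and 6.51% to 8.76% and 5.65% to 7.99% in control. In trained libraries they were 5.96% to 8.24% and 5.46% to 7.94%. Such intervals cover counting error only. Means were 7.14 ± 0.59% (SD, n = 2) in control, 8.63 ± 2.01% in naris occluded and 6.80 ± 0.30% in trained. The difference between trained and control turned direction when only cells with at least 1000 UMIs were used. Two-sided exact permutation tests gave p = 0.667, 0.667 and 0.333 for naris occluded against control, trained against control and trained against naris occluded, where 2 libraries against 2 cannot go below 0.333. Among all cells, OEC5 was 1.62% and 1.54% in control, 1.85% and 2.50% in naris occluded and 1.29% and 1.52% in trained libraries.

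In edgeR's test over the 38 clusters, with all cells of the library as offset, OEC5 did not pass in any comparison. Its log2 ratio was 0.46 ± 0.27 for naris occluded against control (adjusted p = 0.490), where 1 cluster passed (2.63%), and −0.18 ± 0.28 for trained against control (adjusted p = 0.768), where 0 passed (0%). For trained against naris occluded it was −0.64 ± 0.28 (adjusted p = 0.0990 by edgeR), where 8 clusters passed (21.1%). Here the call turned on the fit. With the replicate number, which is also the sex of the pool, as a block, the ratio was −0.63 (adjusted p = 0.0232 by edgeR). Without naris occluded replicate 1 it was −0.84.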

How the data were processed

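The authors captured dissociated bulb cells with Chromium 3′ v2 chemistry, sequenced on a NextSeq500 and deposited UMI counts per gene and barcode without normalization. The processing notes of the submitters name Cell Ranger 2.0.0, Seurat 2.2.1 and mm10. The authors also deposited an annotation with library, cluster and the mitochondrial fraction of each cell, from clustering with molecule number and mitochondrial genes regressed out, after doublet removal and merging of indistinct clusters. The scaled expression table and the annotation of neurons were not used. Of 52549 barcodes, counted over 18560 genes, the 1123 that carried no cluster were left out. In 12208 annotated cells, 217 of them in OEC5, the sum of UMIs differed from the number in the annotation, for a reason that was not tested. Libraries followed the annotation, as cell-name starts of the trained libraries are reversed against it, and Xist and Y-linked genes followed the labelled sex of each pool.

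Counts were summed per cluster and library. Conditions were compared in R 4.3.3 with edgeR 4.0.16 (TMM factors, filter on low counts, quasi-likelihood test, Benjamini-Hochberg threshold 0.05, all 6 libraries), and with DESeq2 1.42.0 as an alternative. Replicates are pools of different mice and sex, and p-values carry both. Both edgeR tests were tested on simulated data for naris occluded against control, with 5433 genes. Most 2-fold changes were missed by both, more so for differences between OEC5 and OEC1 to OEC4. False calls within OEC5 were above the share the threshold allows. Trained against control was not simulated, so the share of false calls among the 39 genes called there against OEC1 to OEC4 is not known.

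The members and all gene lists were chosen with earlier results of these data known. Genes named are the 20 leading and 12 lowest by mean log2 ratio, members of the lists, and in each comparison genes that passed, up to the 10 with the largest change, or the 5 with the smallest p where none passed. Promoter motifs, the pair Cldn5 and Prss56, the genes compared between cells of that pair, and ribosomal genes were chosen after values were seen. The alternatives tried numbered 62. Same-numbered libraries had correlations of their deviations from group means of 0.0353, 0.0141 and 0.0118 over 5430 genes. With 2 libraries per group the deviations mirror each other and carry counting noise. These values therefore cannot show whether same-numbered libraries are paired. Values of a few genes are not reported here.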

Additional observations from a re-analysis of the deposited data

Results flagged for a closer look

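The change from control to trained differed between OEC5 and the sum of OEC1 to OEC4 by edgeR's test of that difference for 39 genes, of which the 10 with the largest values are given here as differences of log2 fold changes. They were 3.91 for Hba-a2, 3.84 for Hba-a1, 3.33 for Fam195a, 2.69 for Adamts5, 2.17 for Gm26532, 2.06 for Slc7a2, −1.59 for Abcb1a, −1.52 for Sema6d, 1.40 for Col12a1 and −1.33 for Lef1. The hemoglobin gene Hba-a1 was between 6.09 and 33.5 CPM in all libraries of OEC5. In OEC1 to OEC4 it was at 90.9 and 9.78 CPM in control and 6.58 and 5.40 CPM in trained libraries, and without control replicate 1 the adjusted p was 0.837. Fam195a and Slc7a2 had under 60 CPM in every library of OEC5. In control OEC5, Fam195a was at 5.27 and 0 CPM, Slc7a2 at 18.5 and 3.54 CPM and Adamts5 at 7.91 and 7.07 CPM. The differences of these genes thus rest on few molecules in control. Sema6d and Abcb1a, which encodes an efflux pump, were at 119 and 127 CPM and at 79.1 and 131 CPM in control OEC5, and both fell in trained OEC5 relative to OEC1 to OEC4. The call for Sema6d was lost without control replicate 1 (adjusted p = 0.112), control replicate 2 (0.0501) or trained replicate 1 (0.347), and that for Abcb1a without control replicate 2 (0.431) or trained replicate 2 (0.146). Each of the other 7 genes of the 10 was also lost when at least 1 single library was left out. Without control replicate 1 the difference was 8.75 for Fam195a, 3.73 for Slc7a2 and 2.07 for Hba-a1. It was 2.05 for Hba-a1 without trained replicate 2, 0.80 for Col12a1 without control replicate 2 and 1.77 for Adamts5 without trained replicate 1. The immediate early genes Jun (0.77), Junb (0.94), Fos (0.55) and Ier2 (0.73) were also among the 39, as were Npy (−0.46), Igfbp5 (0.79, and 0.50 without trained replicate 2) and Igfbp7 (0.89).

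In 36 measures, the highest or lowest of 6 OEC5 libraries was tested for its distance from the rest, and 5 stood apart by Dixon's criterion, where chance gives about 1 in 20. Trained replicate 2 stood apart for Fos at 2895 CPM, for Socs3 at 761 CPM and for Ppp1r15a at 308 CPM. Control replicate 1 stood apart for Gm1673 at 129 CPM. Naris occluded replicate 2 stood apart for the share of OEC5 among OECs, 10.0%.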

How the results depend on the processing

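The number of genes 1.5 times higher in OEC5 in all libraries was 22 to 24 when any library was left out, 21 with cells of at least 1000 UMIs, 23 without mitochondrial genes, 15 after thinning to 500 UMIs and 18 at 2 times in place of 1.5. Of all single-gene values tried under alternatives, 1 turned direction (Agt, 0.0646 with cells of at least 1000 UMIs). Calls between conditions depended on the test. DESeq2's Wald test gave 0 calls in all 3 comparisons within OEC5 and 0 in both comparisons with OEC1 to OEC4. Without a filter on low counts, trained against control and trained against naris occluded each gave 21 calls. Leaving out 1 library gave 0 to 5 calls for naris occluded against control, 1 to 25 for trained against control and 6 to 20 for trained against naris occluded. Against OEC1 to OEC4 it gave 0 to 1 and 14 to 40 calls. Without trained replicate 2, 14 genes were called and all 14 were among the 39. Without control replicate 1, the 1 gene called in trained against control was not among the 5. With the replicate number as a block, calls within OEC5 numbered 1, 5 and 7 and those against OEC1 to OEC4 0 and 36, and the share of OEC5 among all cells in trained against naris occluded passed, at −0.63 (adjusted p = 0.0232). The replicate number is also the sex of the pool, so the block stands for sex. Deviations of same-numbered libraries hardly correlated, but with 2 libraries per group this cannot show whether the libraries are paired. Leaving out 1 library moved the log2 ratio of shares between 0.227 and 0.660 for naris occluded against control, between −0.298 and −0.0571 for trained against control and between −0.837 and −0.404 for trained against naris occluded. For shares among OECs the differences in percentage points ran from 0.0664 to 2.91, from −0.756 to 0.0802 and from −3.24 to −0.404. With cells of at least 1000 UMIs, the difference for trained against control was 0.502, beside −0.338 with all cells, so that its direction turned. The causes of these changes were not tested. With 102 to 229 OEC5 cells per library, a change that did not pass is not shown to be absent.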

Other observations

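Genes with ribosomal protein names, taken up after their values were seen, were higher in OEC5 than in OEC1, OEC2 and OEC4 but not OEC3. The set was taken by symbol, Rpl or Rps followed by a digit. Some members may not encode ribosomal proteins, and ribosomal genes with other names are left out. These 109 genes made up 7.49 ± 0.40% of UMIs in OEC5. They made up 5.88% in OEC1, 5.76% in OEC2 and 6.10% in OEC4, and 8.79 ± 0.50% in OEC3, the cluster of lowest depth. Libraries of OEC5 ran from 6.86% to 8.05% and did not overlap those of OEC1, OEC2 and OEC4, of which the highest was 6.44%. Of 91 such genes at 50 CPM or more in OEC5, 87 (95.6%) had a higher mean there than in OEC1, OEC2 and OEC4, against 804 (28.0%) of 2875 genes of all kinds. Over OEC3, 10 of the 91 were higher.

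Of the interferon-linked genes, 0 of 14 tested within OEC5 passed in naris occluded or in trained against control, comparisons that share their control libraries and in which 0.0184% and 0.092% of all genes passed. In the test of trained against control between OEC5 and OEC1 to OEC4, 1 of 21 passed, beside 39 of all 11036 genes (0.353%). It was Isg15, a ubiquitin-like modifier, with a difference of 0.92 ± 0.17 (edgeR, adjusted p = 0.000128), and without control replicate 1 the adjusted p was 0.127. Isg15 was at 424 and 202 CPM in control, 137 and 227 in naris occluded and 283 and 338 in trained OEC5. In OEC1 to OEC4 it was at 440 and 202 CPM in control and 146 and 185 in trained libraries.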
